A study of Mus musculus with 57 samples.

Results

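The 10 genes described here encode factors that shorten the poly(A) tails of messenger RNA and mark it for decay: Btg4, Cnot6l, Cnot6, Cnot7, Cnot8, Cnot1, Pan2, Pan3, Parn and Zfp36l2. They were chosen by name, as the rows whose Ensembl identifier maps to these symbols, and each of the 10 had 1 row among the 54446 Ensembl rows of the expression table. The study measured total RNA, depleted of ribosomal RNA and primed at random, in mouse oocytes and preimplantation embryos, and its title concerns repeat elements, long noncoding RNAs and the activation of the zygotic genome. The stage series held C57BL/6 material, 150 to 200 embryos a sample. It had 2 sample columns each of MII oocytes, zygotes and 2-cell embryos early (E2-cell) and late (L2-cell) in that stage. It also had 2 each of embryos of 4 and 8 cells (4-cell, 8-cell), morulae and blastocysts. The other embryos came from in vitro fertilisation in the BDF1 hybrid background. A time series held 2 sample columns each at 14, 17 and 20 h after fertilisation. The labels list 4 samples, not 2, for each of these times and for each stage from 4-cell on. The names of their columns hold the word merge or cat. This may mean that samples were pooled, which is not stated. The columns from MII to L2-cell hold neither word. Each column is called a sample below. A knockdown series used an antisense oligonucleotide (ASO) against the long noncoding RNA LncR-3363, injected at 20 uM, with 4 control samples (Ctrl), 4 samples labelled KD-1cell and 1 labelled KD-2cell; the sources used here do not say what these names mean for injection or stage, and the columns were tied to LncR-3363 by the structure of the series alone. A knockout series targeted MT2Mm, the long terminal repeat of the endogenous retrovirus MERVL, with 150 ng/uL guide RNA and 100 ng/uL Cas9 messenger RNA injected into MII oocytes of mice 6 to 8 weeks old, with 3 samples each of control (ctrl) and knockout (ko) embryos at 2 stages, late 1-cell embryos (Late1c) and 2-cell embryos early in that stage (Early2c). Injected embryos can be mosaic, the labels name no injection of control embryos, and neither target has a row that served as a check of its loss.

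A fertilised egg starts with messenger RNA stored by the oocyte, most of which is removed as the embryo's own genome is switched on. Removal usually begins with deadenylation. The CCR4-NOT complex does most of this in the cytoplasm: CNOT1 is its scaffold, and it carries 1 nuclease of the CCR4 type (CNOT6 or CNOT6L) and 1 of the CAF1 type (CNOT7 or CNOT8). BTG4 is an oocyte and egg adaptor that ties the complex to maternal messenger RNA, and ZFP36L2 is a zinc finger protein that brings it to AU-rich sequences. PAN2 and PAN3 form a second deadenylase, in which PAN2 is the nuclease and PAN3 its partner, and PARN is a separate poly(A)-specific ribonuclease. In oocytes several of these messages are stored with short tails and are lengthened and translated at maturation through cytoplasmic polyadenylation elements near their 3′ ends. Random-primed total RNA gives the level of a message relative to the other RNA of the library, not how long its tail is.

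The promoters of Btg4, Cnot6l and Cnot6 are printed because Btg4 had the widest range over the stages and the CCR4-type pair changed places during the series. Sequences are from RefSeq on GRCm38.p6, cover 240 bases from 250 to 11 bases before the annotated start, and were matched for 7 of the 10 genes. Capitals mark, on either strand, the TATA motifs TATAAA or TATATA, the CAAT box CCAAT and the GC box GGGCGG.
Btg4: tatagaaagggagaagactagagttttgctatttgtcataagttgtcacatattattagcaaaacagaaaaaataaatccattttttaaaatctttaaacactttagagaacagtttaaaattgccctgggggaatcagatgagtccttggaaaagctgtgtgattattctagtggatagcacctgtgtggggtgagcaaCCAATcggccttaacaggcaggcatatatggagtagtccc
Cnot6l: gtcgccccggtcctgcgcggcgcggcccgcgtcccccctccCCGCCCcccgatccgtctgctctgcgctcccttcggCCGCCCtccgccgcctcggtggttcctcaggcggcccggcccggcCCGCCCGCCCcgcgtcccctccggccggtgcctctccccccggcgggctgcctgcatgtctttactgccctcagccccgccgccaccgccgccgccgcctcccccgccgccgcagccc
Cnot6: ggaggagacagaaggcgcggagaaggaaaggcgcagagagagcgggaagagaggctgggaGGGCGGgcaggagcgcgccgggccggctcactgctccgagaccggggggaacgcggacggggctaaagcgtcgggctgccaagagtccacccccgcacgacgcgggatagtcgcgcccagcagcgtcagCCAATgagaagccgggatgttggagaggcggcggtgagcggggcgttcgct
The Btg4 window (chr9:51115751-51115990, plus strand) had 37.5% G or C and 1 CpG, and 8.66% of the 27025 promoters had a lower G or C share. It held CCAAT 50 bases before the start, and that start lies within introns of longer annotated Btg4 transcripts. The Cnot6l window (chr5:96162001-96162240, minus strand) had 82.9% G or C, above 99.5% of promoters, and 37 CpG, with 4 copies of GGGCGG on the opposite strand. This window lies within the Cnot6l gene as annotated in GENCODE M21 (chr5:96070333-96164171), not upstream of its outermost start. The Cnot6 window (chr11:49712733-49712972, minus strand) had 70.4% G or C and 29 CpG, with 1 GGGCGG and 1 CCAAT. Over all promoters the median was 52.1% G or C and 5 CpG, 33.7% held CCAAT, 31.5% GGGCGG, 12.7% TATAAA and 5.44% TATATA on either strand; CANNTG, held by 64.9%, was found in the Btg4 window and in neither of the others. These matches describe letters in a window and were not tested against the values.

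The 3′ ends of the messages are printed because cytoplasmic polyadenylation elements lie there. They come from GENCODE M21 transcripts on GRCm38, which gave an end for 9 of the 10 genes. Capitals mark the element TTTTAT or TTTTAAT, searched in the last 150 bases, and the poly(A) signal AATAAA or ATTAAA, searched in the last 50.
Btg4: cctTTTTATgtctttttaaaagtttgattt
Cnot7: acaTTTTATatcAATAAAaatac
Pan2: tatTTTTATctcattagaaaa
Pan3: attTTTTAATAAAgaattgcagaAATAAAc
Cnot6l: ggcAATAAAtggccattttgcaaccgca
Zfp36l2: cccAATAAAattttttgg
The element was found in 5 of the 9 ends, against 23.5% of 18271 genes searched the same way. Cnot7 and Pan2 each had 3 copies, Btg4 had 2, at 116 and 67 bases from the end, and Cnot1 and Pan3 each had 1. The Cnot7 transcript used ends within the gene as annotated (chr8:40492540-40515847), not at its outermost 3′ end. Its 3 copies therefore describe that transcript. None was found in the windows of Cnot6l, Cnot6, Parn and Zfp36l2. In Pan3 the element and the signal overlap. The signal was found in 6 of 9 ends, against 75.9% of genes. The stretches shown are chr9:51119806-51119835 (plus strand) for Btg4, chr8:40493036-40493058 (minus) for Cnot7, chr10:128321333-128321353 (plus) for Pan2, chr5:147548468-147548497 (plus) for Pan3, chr5:96070333-96070360 (minus) for Cnot6l and chr17:84183931-84183948 (minus) for Zfp36l2.

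Expression is given in FPKM (fragments per kilobase of transcript, corrected for library size), so levels can be set beside each other between genes within an experiment; read depth cannot be told from them. Marker genes followed the labels in most groups, with some exceptions. The summed level of 8 oocyte genes was 3467 FPKM in MII oocytes and 7.2 in blastocysts, that of 6 genes of the 2-cell stage rose from 3.7 in MII oocytes to 180 at E2-cell, and that of 6 blastocyst genes was 1578 in blastocysts. The sum of the 2-cell genes was still 137 at L2-cell, 134 at 4-cell and 73.1 at 8-cell, and Tdpoz4 among them was highest at 4-cell (102). At 20 h after fertilisation the blastocyst genes Krt8 and Krt18 had means of 4.04 and 3.25, against 0.420 and 0.0584 at 17 h. The cumulus gene Tnfaip6 had 1.02 at 20 h and 0 at 17 h. Summed cumulus and granulosa genes lay between 2.19 and 8.49 FPKM in most groups and at 25.3 to 40.7 from L2-cell to 8-cell, nearly all from Amhr2; sperm and testis genes summed to 0.1 to 6.6. In the column names of the stage series, both E2-cell samples carry another tag than both L2-cell samples, so stage and whatever the tag stands for cannot be told apart at that step. Zygote replicate 1 shares the tag of the E2-cell samples, and zygote replicate 2 carries another. From zygote to E2-cell, leaving out zygote replicate 2 is therefore also the fit of columns that share a tag. The 4-cell columns carry no such tag but the word merge, which the L2-cell columns lack. Stage and this difference in names therefore cannot be told apart at the step to 4-cell either. Differences below are log2 changes of FPKM + 0.5 with their standard error (SE), tested with limma over all rows that reached 1 FPKM in enough samples. A gene is called where the Benjamini-Hochberg adjusted p over all rows is under 0.05, and "rose" and "fell" are used for called genes. FPKM is relative to the rest of its library. A rise or fall is therefore a change in share, and the amount per embryo cannot be read from it. The sources used here do not say that samples are separate embryo pools, so p-values measure the spread between samples, which may be technical. In bulk RNA, less of a transcript per cell and fewer cells that hold it cannot be told apart.

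Btg4 was by far the most abundant of the 10 genes in oocytes and early embryos and all but gone in blastocysts. It measured 445 and 629 FPKM in MII oocytes, 804 and 716 in zygotes, and 979 and 1005 at E2-cell. It then measured 288 and 352 at L2-cell, 44.0 and 46.1 at 4-cell, 15.0 and 12.1 at 8-cell, 3.54 and 3.78 in morulae, and 0.391 and 0.525 in blastocysts. No neighbouring stages overlapped in the order of their means, and the E2-cell mean was 2166-fold above the blastocyst mean. Btg4 fell at each of the 5 steps after E2-cell: by 1.64 on the log2 scale to L2-cell (SE 0.18, adjusted p = 9.34e-06, limma), by 2.81 to 4-cell, by 1.70 to 8-cell, by 1.75 to morula and by 2.12 to blastocyst. The change from MII to zygote was 0.52 (SE 0.18) and did not pass (adjusted p = 0.13), and neither did that from zygote to E2-cell, at 0.39 (adjusted p = 0.11). The latter was called, at 0.57, after the columns were scaled by the median of ratios.

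**Figure D1:**
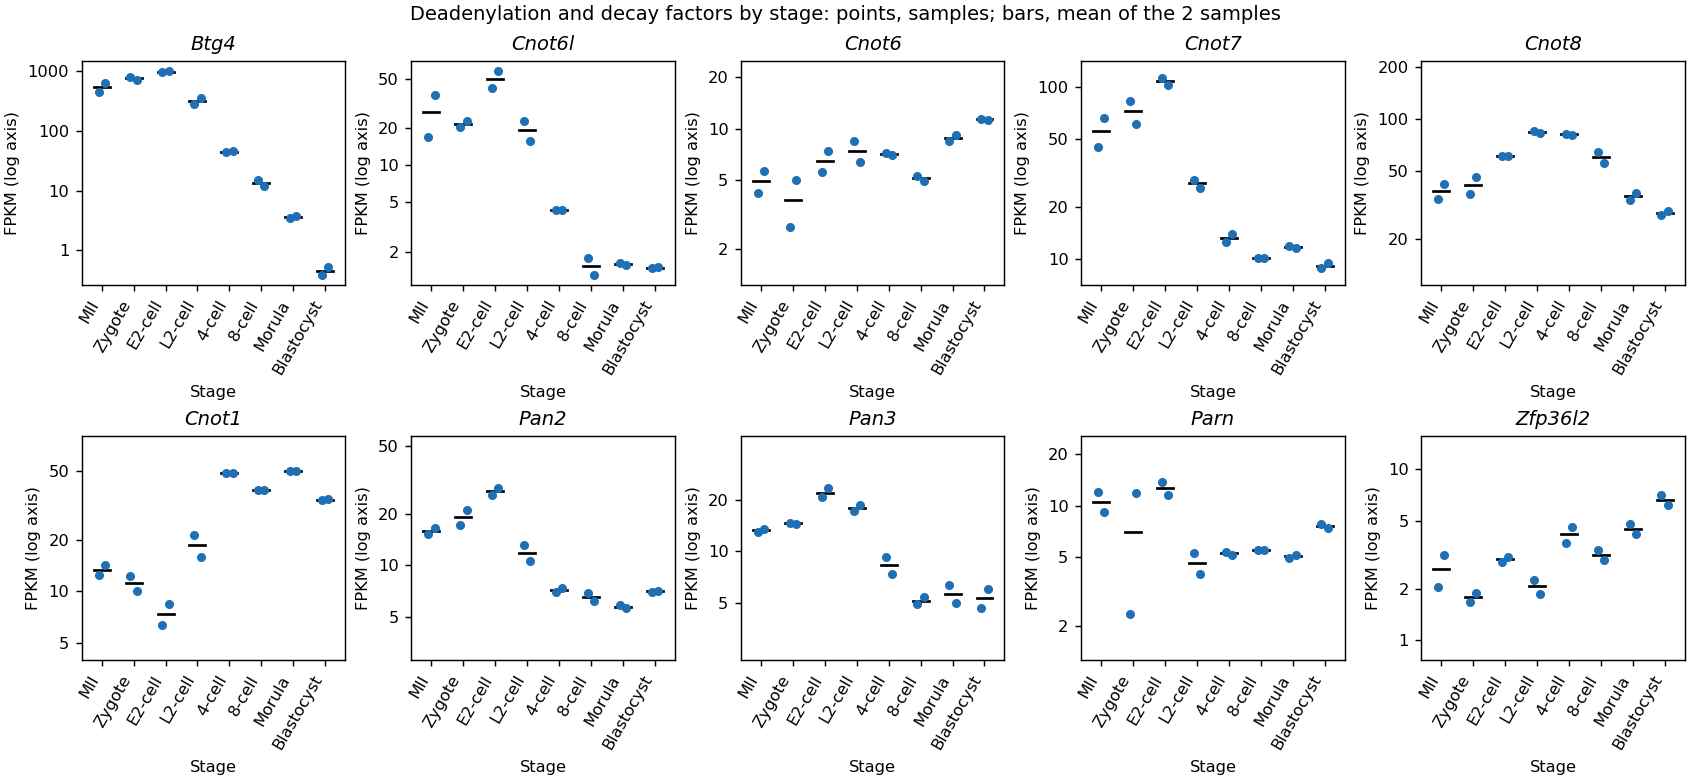
FPKM of each of the 10 genes at the 8 stages (log axis, with its own range for each gene); points are the 2 samples of a stage and bars their mean. Btg4 goes from a mean of 992 at E2-cell to 0.458 in blastocysts, while Cnot1 goes from 7.39 at E2-cell to 50.2 in morulae.

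The 2 CCR4-type nucleases diverged after E2-cell. Cnot6l was the maternal form: it measured 16.9 and 37.1 FPKM in MII oocytes, 20.5 and 22.9 in zygotes, 41.8 and 57.5 at E2-cell, 22.7 and 15.7 at L2-cell, 4.31 and 4.33 at 4-cell and 1.78 and 1.301 at 8-cell. Morulae had 1.62 and 1.57 and blastocysts 1.46 and 1.51. The E2-cell samples were above those of every other stage, and the samples of MII, zygote and L2-cell overlapped in part. Cnot6l rose by 1.16 from zygote to E2-cell (SE 0.31, adjusted p = 0.0098), then fell by 1.35 to L2-cell (adjusted p = 0.0021), by 2.01 to 4-cell (adjusted p = 0.00022) and by 1.25 to 8-cell (adjusted p = 0.0091). Cnot6 measured 4.22 and 5.67 in MII oocytes, 2.66 and 5.04 in zygotes, 5.61 and 7.44 at E2-cell, 8.50 and 6.39 at L2-cell, 7.25 and 7.06 at 4-cell and 5.32 and 4.99 at 8-cell. Its stage means were highest at the end, with 8.47 and 9.26 in morulae and 11.5 and 11.3 in blastocysts. Its spread over stages was 2.96-fold, against 33.4-fold for Cnot6l, and its 1 call in the stage series was the rise from zygote to E2-cell (0.73, SE 0.24, adjusted p = 0.030), which was lost with no filter on low values and without E2-cell replicate 2 (0.54) or zygote replicate 1 (0.33). Its change from 8-cell to morula of 0.73 (adjusted p = 0.058) was called after median-of-ratios scaling (0.68, adjusted p = 0.041) and with those 2 groups alone. The rise of Cnot6l was lost without E2-cell replicate 2 (0.93), and its last fall without 8-cell replicate 2 (-1.08). Within the summed FPKM of the pair, Cnot6l made up 83.4% ± 4.78 (SD, n = 2) in MII oocytes, 88.3% ± 0.262 at E2-cell, 71.9% ± 1.25 at L2-cell, 37.6% ± 0.485 at 4-cell and 11.5% ± 0.348 in blastocysts. The pair together went from 56.2 FPKM at E2-cell to 6.69 at 8-cell and 12.9 in blastocysts.

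The CAF1-type pair changed places 1 step earlier. Cnot7 measured 44.8 and 66.7 FPKM in MII oocytes, 83.7 and 61.1 in zygotes and 114 and 104 at E2-cell, then 29.0 and 25.9 at L2-cell, 12.5 and 13.98 at 4-cell, 10.1 and 10.1 at 8-cell, 11.9 and 11.5 in morulae and 8.80 and 9.42 in blastocysts. Every sample up to E2-cell was above every later sample. Cnot7 rose by 0.60 to E2-cell (SE 0.19, adjusted p = 0.024), fell by 1.97 to L2-cell (SE 0.19, adjusted p = 3.32e-06) and fell by 1.02 to 4-cell (adjusted p = 0.00081). Cnot8 measured 33.9 and 41.9 in MII oocytes, 36.5 and 45.7 in zygotes, 61.1 and 60.5 at E2-cell, and 84.8 and 83.2 at L2-cell, its highest stage. It was 82.1 and 80.5 at 4-cell, 64.4 and 55.6 at 8-cell, 33.8 and 37.0 in morulae and 27.6 and 28.9 in blastocysts. Cnot8 rose by 0.57 to E2-cell (adjusted p = 0.0076) and by 0.46 to L2-cell (SE 0.14, adjusted p = 0.013), and fell by 0.44 to 8-cell (adjusted p = 0.035) and by 0.75 to morula (adjusted p = 0.0035). The fall to 8-cell was not called after scaling by the median of ratios (-0.33), with no filter, or without 8-cell replicate 2 or either 4-cell sample. The rise to L2-cell was lost without L2-cell replicate 1 or E2-cell replicate 2, at 0.45 and 0.46. The rise of Cnot7 was lost without either E2-cell sample or zygote replicate 2 (0.37 to 0.66). Cnot7 made up 64.1% ± 1.33 (SD, n = 2) of the pair's FPKM at E2-cell, 24.6% ± 1.19 at L2-cell, 14.03% ± 1.10 at 4-cell and 24.4% ± 0.280 in blastocysts. Cnot7 overlaps Vps37a and Zdhhc2 on the opposite strand, and the sources used here do not say whether the counting used strand; those genes reached at most 12.2 and 2.81 FPKM.

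**Figure D2:**
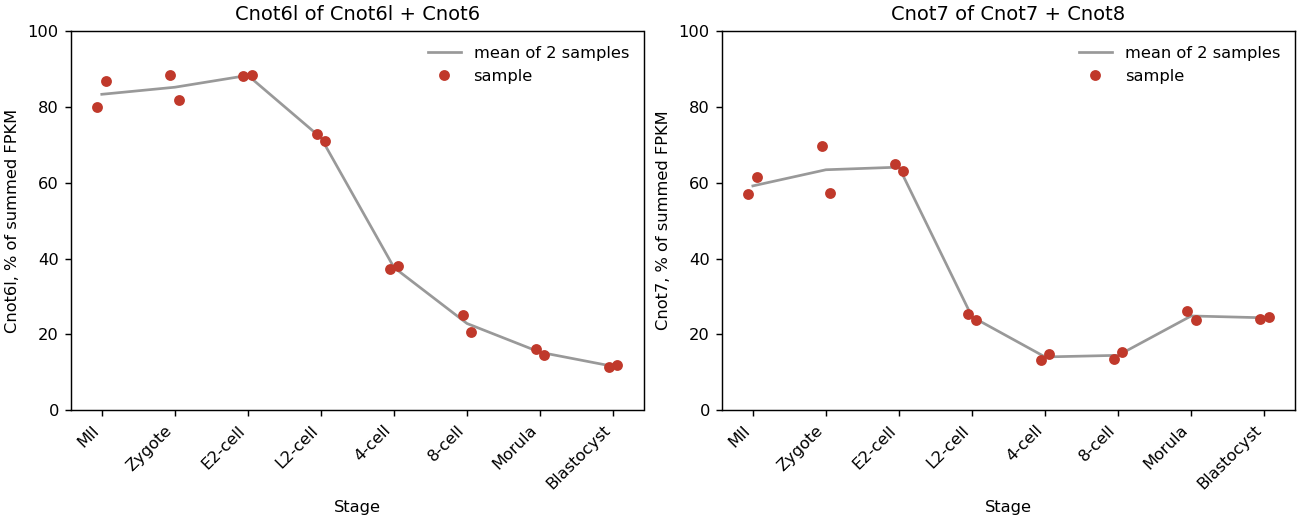
Share of Cnot6l in the summed FPKM of Cnot6l and Cnot6, and of Cnot7 in that of Cnot7 and Cnot8, in percent, at the 8 stages; points are samples and lines join the means. The Cnot7 share falls from 64.1% to 24.6% between E2-cell and L2-cell, and the Cnot6l share from 71.9% to 37.6% between L2-cell and 4-cell.

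The scaffold ran the other way from Btg4. Cnot1 measured 12.4 and 14.1 FPKM in MII oocytes, 12.2 and 10.0 in zygotes, 6.33 and 8.45 at E2-cell, 21.2 and 15.7 at L2-cell and 48.8 and 48.7 at 4-cell. It stayed high at 39.0 and 38.9 at 8-cell, 50.1 and 50.2 in morulae and 34.1 and 34.4 in blastocysts. Every sample from 4-cell on was above every earlier sample, and E2-cell was its lowest stage, where Btg4, Cnot6l, Cnot7, Pan2, Pan3 and Parn were highest. Cnot1 fell by 0.56 to E2-cell (SE 0.17, adjusted p = 0.018), which was not called after median-of-ratios scaling (-0.39) or without E2-cell replicate 1 (-0.37) or zygote replicate 1 (-0.43). It rose by 1.26 to L2-cell (SE 0.17, adjusted p = 4.26e-05) and by 1.39 to 4-cell (adjusted p = 3.79e-05). Its fall of 0.54 to blastocyst (adjusted p = 0.023) was lost with each of the 4 samples left out in turn and with the replicate block. Over the 8 stage means, on the log2 scale, Cnot1 had a Pearson r of -0.986 with Pan2 and -0.960 with Cnot7, a description over points that share libraries. A small nucleolar RNA row, Gm26493, lies within Cnot1 on the same strand and reached 66.9 FPKM.

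The Pan2 and Pan3 messages both peaked at E2-cell, and Pan2 was first called lower at L2-cell and Pan3 at 4-cell. Pan2 measured 15.2 and 16.5 FPKM in MII oocytes, 17.2 and 21.0 in zygotes, 25.7 and 28.5 at E2-cell and 13.1 and 10.6 at L2-cell, and lay between 5.61 and 7.35 from 4-cell on. Pan3 measured 12.97 and 13.6 in MII oocytes, 14.7 and 14.5 in zygotes, 20.8 and 23.3 at E2-cell and 17.2 and 18.7 at L2-cell, then 9.34 and 7.44 at 4-cell and between 4.70 and 6.35 from 8-cell on. For both genes the E2-cell samples were above all others. Pan2 rose by 0.50 to E2-cell (SE 0.14, adjusted p = 0.011), fell by 1.16 to L2-cell (adjusted p = 1.59e-05) and fell by 0.68 to 4-cell (adjusted p = 0.0014). Pan3 rose by 0.58 to E2-cell (SE 0.16, adjusted p = 0.012), and its change to L2-cell of -0.29 did not pass (adjusted p = 0.13). It then fell by 1.06 to 4-cell (adjusted p = 0.00018) and by 0.64 to 8-cell (adjusted p = 0.0091), the latter lost without 8-cell replicate 1 (-0.58) or 4-cell replicate 3 (-0.49). The rise at E2-cell was lost without E2-cell replicate 2 for both (0.42 for Pan2, 0.49 for Pan3) and without zygote replicate 1 for Pan2 (0.36). Whether the L2-cell changes of the 2 genes differ from each other was not tested.

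Over the stages, Parn samples lay between 2.33 and 13.8 FPKM and Zfp36l2 samples between 1.69 and 7.11. Parn measured 12.0 and 9.22 FPKM in MII oocytes, 2.33 and 11.8 in zygotes, 13.8 and 11.6 at E2-cell and 5.31 and 3.98 at L2-cell. From 4-cell to morula it lay between 4.95 and 5.55, and blastocysts had 7.82 and 7.41. The zygote samples thus hold its lowest value and a value near its highest. Parn fell by 1.37 to L2-cell (SE 0.48, adjusted p = 0.025), a call lost with no filter and without L2-cell replicate 2 or either E2-cell sample. Its change from zygote to E2-cell of 1.16 was not called (adjusted p = 0.074), and it was called at 2.22 without zygote replicate 2. Zfp36l2 measured 2.05 and 3.17 in MII oocytes, 1.69 and 1.89 in zygotes, 2.87 and 3.07 at E2-cell and 2.26 and 1.87 at L2-cell. It was higher later, at 3.73 and 4.62 at 4-cell, 3.35 and 2.94 at 8-cell, 4.79 and 4.19 in morulae and 7.11 and 6.19 in blastocysts. It rose by 0.60 to E2-cell (SE 0.18, adjusted p = 0.019), a call lost without either E2-cell sample or zygote replicate 1, and by 0.86 to 4-cell (adjusted p = 0.0018). Its fall of 0.44 to L2-cell (adjusted p = 0.049) was lost under 9 of the alternatives, and its rise of 0.52 to blastocyst (adjusted p = 0.040) was lost without any 1 of the 4 samples.

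Over the 7 stage steps, the most members were called at E2-cell and L2-cell, with 8 of 10 each. The step to L2-cell also had the most calls over all rows, with 6130 higher and 7395 lower of 19692. The members' total at L2-cell is thus near that over all rows. From MII to zygote limma called 0 of 10, with 2 at an unadjusted p under 0.05, where 1.73% of the 19692 rows tested were called higher and 2.03% lower; without zygote replicate 2, Cnot6 (-0.77), Cnot7 (0.61) and Parn (-1.96) were called. From zygote to E2-cell 7 rose and 1 fell, against 17.9% of all rows higher and 26.2% lower; after median-of-ratios scaling 9 rose, Btg4 and Parn (1.34) included, and 0 fell. From E2-cell to L2-cell 2 rose and 6 fell, against 31.1% and 37.6%. From L2-cell to 4-cell 2 rose and 5 fell, against 30.2% and 26.2%; scaling moved the median over all rows by -0.11 at this step and Cnot8 from -0.05 to -0.33, where it was called. From 4-cell to 8-cell 0 rose and 4 fell, against 13.4% and 21.6%. From 8-cell to morula 0 rose and 2 fell, against 8.39% and 12.5%. From morula to blastocyst 1 rose and 2 fell, against 22.4% and 16.3%; after scaling 0 rose and 3 fell, with Cnot8 called at -0.41 and Zfp36l2, at 0.43, not called. Scaling also gave 1 rise and 2 falls from 8-cell to morula and 0 and 3 from 4-cell to 8-cell. The members' median change was 0.59 from zygote to E2-cell, beside -0.01 over all rows, and -0.80 from E2-cell to L2-cell, beside -0.10. The 7 rises at E2-cell rest on the spread shared over all 8 stages and on single samples: 0 of the 10 were called when the zygote and E2-cell samples were fitted alone, and 2 to 8 when 1 sample was left out, the fewest without E2-cell replicate 2.

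**Figure D3:**
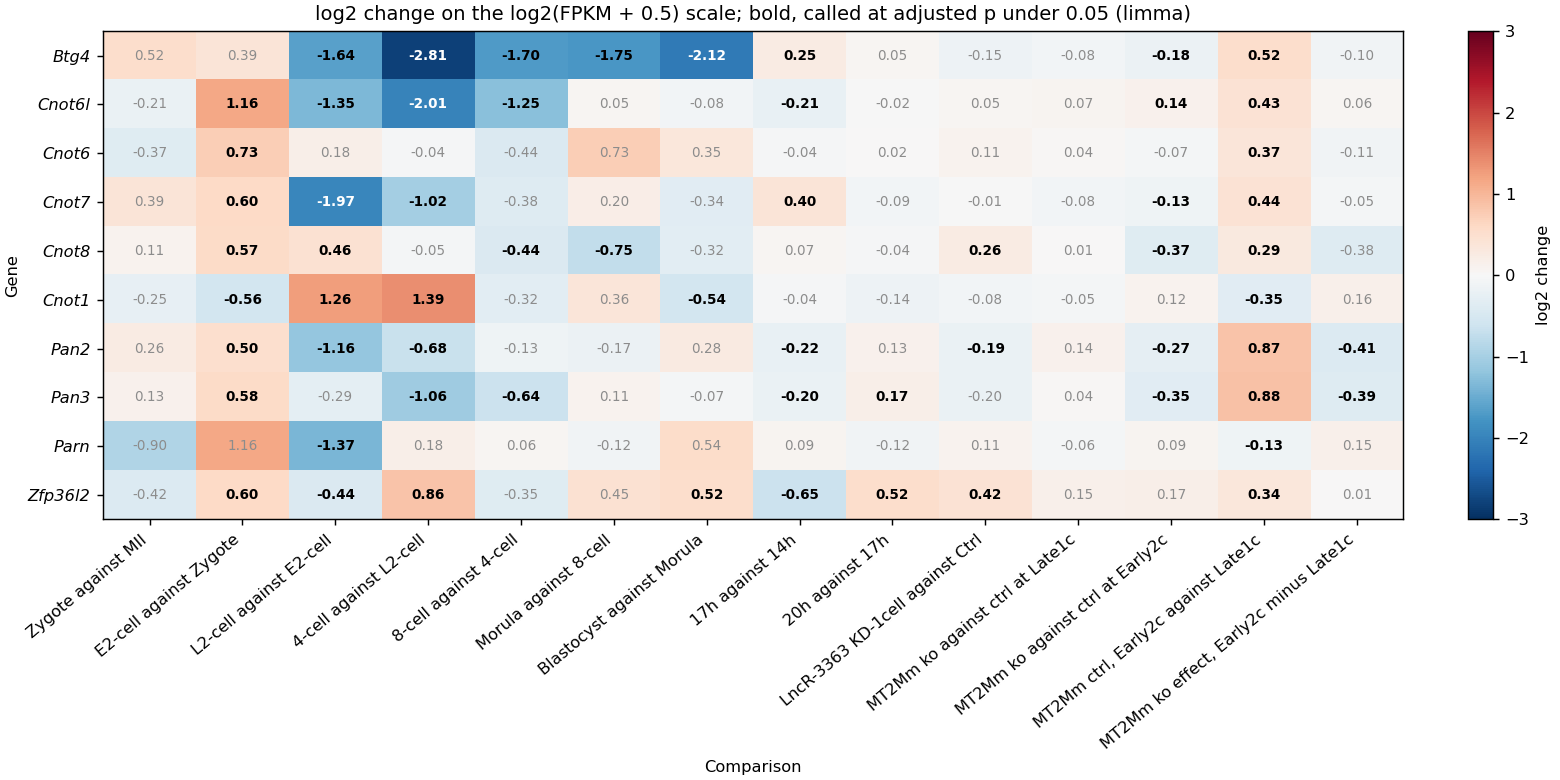
Log2 change of each of the 10 genes (rows) in each of the 14 comparisons (columns), as colour and value, with called changes in bold. Between E2-cell and L2-cell 6 genes are called lower, and Cnot1 and Cnot8 are called higher.

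The rest of the decay machinery did not move as a block. Of 6 other genes named as CCR4-NOT subunits, 4 fell and 1 rose from E2-cell to L2-cell, with a median of -1.03. Cnot11, a subunit that docks on CNOT1, fell by 1.61 (SE 0.15, adjusted p = 2.88e-06, limma), and Cnot4, which encodes a ubiquitin ligase, fell by 1.60. Of the exosome and other 3′-to-5′ decay genes, 11 of 16 rose and 2 fell at that step, with a median of 0.87 beside -0.10 over all rows, after 1 rise and 6 falls from zygote to E2-cell (3 and 5 after median-of-ratios scaling). Over all rows, 31.1% were called higher and 37.6% lower at L2-cell, and 17.9% and 26.2% at E2-cell. Exosc5 rose by 2.72, Exosc2 by 2.06, and Dis3, a catalytic subunit of the exosome, by 2.16. Of 5 BTG and TOB genes, Btg3 rose by 1.76 at L2-cell and Btg2 fell by 2.16, and Btg1 rose by 2.21 at 4-cell. Of 15 decapping and 5′-to-3′ decay genes, 4 rose and 5 fell from E2-cell to L2-cell; Lsm4, a subunit of the LSM rings, rose by 2.60 and Edc4, a decapping enhancer, fell by 1.69. Of 19 RNA-binding adaptors, 6 rose and 5 fell; Rc3h2 rose by 2.53 and Ythdf1, a reader of methylated adenosine, by 1.76. Tut4, which adds uridines to short tails, rose by 1.57, as 1 of 2 called rises among 5 terminal nucleotidyltransferases. The deadenylase Toe1 rose by 2.39, as 1 of 2 rises and 1 fall among 5 other deadenylases. The lists and members were chosen with earlier results known, and these counts describe them.

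Among the poly(A)-binding protein genes, the oocyte forms fell and Pabpc1 rose at the same step. Pabpc1, the main cytoplasmic form in somatic cells, had a mean of 0.929 FPKM at E2-cell, 14.7 at L2-cell and 63.1 in morulae, and rose by 3.38 at L2-cell (SE 0.19, adjusted p = 4.69e-08). Pabpc1l, the oocyte and early embryo form, had 95.3 at E2-cell and 7.17 at L2-cell and fell by 3.65 (SE 0.25, adjusted p = 2.45e-07). Pabpn1l, an oocyte form of the nuclear protein, had 292 in zygotes, 39.9 at E2-cell and 2.65 at L2-cell and fell by 3.68 at the last of these steps (SE 0.24, adjusted p = 1.35e-07). The oocyte forms and Pabpc1 thus crossed in level between E2-cell and L2-cell. Pabpc4 was above Pabpc1 at every stage, with means of 48.1 FPKM at E2-cell, 38.9 at L2-cell, 146 at 4-cell and 283 in morulae. Pabpn1 had 16.7 at E2-cell, 32.3 at L2-cell and 27.9 in morulae. Of the 5 genes of the list, 1 rose and 2 fell from E2-cell to L2-cell (1 and 3 after median-of-ratios scaling). Over all rows, 31.1% were called higher and 37.6% lower at that step, so these counts are near those shares.

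**Figure D4:**
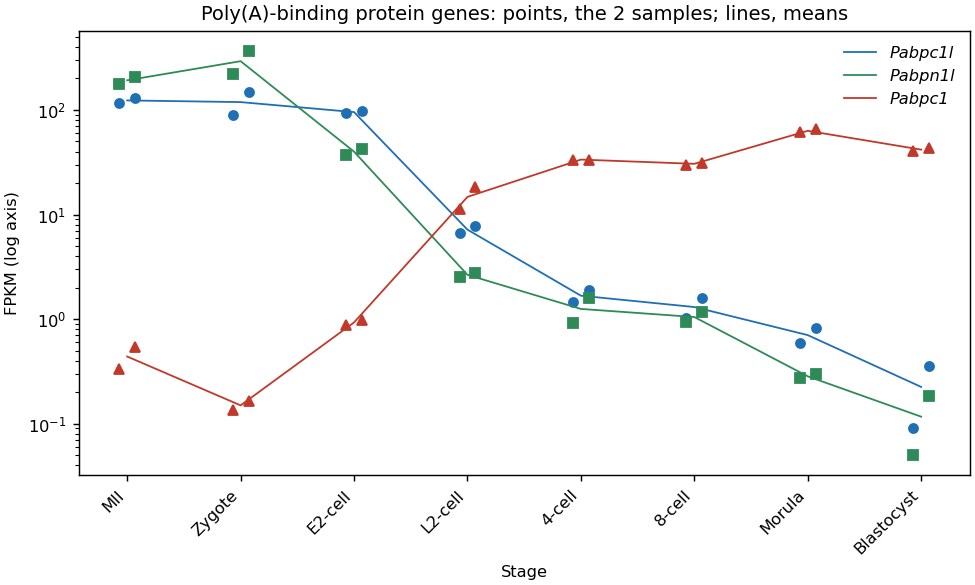
FPKM of 3 poly(A)-binding protein genes over the 8 stages (log axis); points are the 2 samples of a stage and lines join their means. Pabpc1l goes from 95.3 to 7.17 between E2-cell and L2-cell while Pabpc1 goes from 0.929 to 14.7. Pabpc4 and Pabpn1 are not drawn.

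Between 14 and 20 h after fertilisation the changes were small. Btg4 measured 587 and 577 FPKM at 14 h, 677 and 703 at 17 h and 706 and 727 at 20 h, and rose by 0.25 from 14 to 17 h (SE 0.038, adjusted p = 0.0049). Cnot7 measured 76.2 and 74.9, then 94.7 and 105, then 94.2 and 93.1, and rose by 0.40 (SE 0.052, adjusted p = 0.0028). For both, the 14 h samples were below all later ones. Cnot6l (30.3 and 27.5 at 14 h, 25.6 and 24.1 at 17 h) fell by 0.21 (adjusted p = 0.032), Pan2 by 0.22 (adjusted p = 0.0076) and Pan3 by 0.20 (adjusted p = 0.015). Zfp36l2 measured 3.38 and 3.68 at 14 h, 2.04 and 2.09 at 17 h and 3.16 and 3.18 at 20 h, falling by 0.65 (adjusted p = 0.0020) and then rising by 0.52 (adjusted p = 0.0083). From 14 to 17 h 2 members rose and 4 fell, against 20.5% and 16.5% of the 12834 rows tested. From 17 to 20 h 2 rose and 0 fell, against 5.13% and 14.5%. The other rise, of Pan3 by 0.17 (adjusted p = 0.043), was lost under 7 alternatives. The columns at 17 h carry another processing word in their names than the rest, so the time and that word cannot be told apart. The falls of Cnot6l and Pan3 were also lost without either 17 h sample or 14 h replicate 1.

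The controls of the MT2Mm experiment cover the step from the 1-cell to the early 2-cell stage in another background with 3 samples each. Pan2 measured 14.01, 16.2 and 12.6 FPKM in Late1c ctrl and 25.8, 26.7 and 26.3 in Early2c ctrl, and rose by 0.87 (SE 0.073, adjusted p = 3.59e-07). Pan3 measured 19.5, 20.6 and 20.1, then 37.2, 39.2 and 35.9, and rose by 0.88 (SE 0.046, adjusted p = 4.72e-09). Btg4 measured 568, 561 and 567, then 776, 828 and 834, and rose by 0.52 (SE 0.048, adjusted p = 8.30e-07). The stages did not overlap in any of these 3 genes. Cnot6l rose by 0.43, Cnot6 by 0.37, Cnot7 by 0.44, Cnot8 by 0.29 (adjusted p = 0.020) and Zfp36l2 by 0.34 (adjusted p = 0.019). The rise of Cnot8 was lost without Early2c ctrl replicate 2 (0.19) or Late1c ctrl replicate 3 (0.22), and that of Zfp36l2 without 3 of the 6 samples (0.27 to 0.31). Cnot1 measured 15.1, 12.9 and 14.8 and then between 10.7 and 11.5, and fell by 0.35 (adjusted p = 0.00023), and Parn fell by 0.13 (adjusted p = 0.039), a call lost without 4 of the 6 samples. In total, 8 members rose and 2 fell, against 33.5% and 45.7% of the 13180 rows tested, and the members' median was 0.40 beside -0.15 over all rows. The 7 members that rose between zygote and E2-cell in the stage series all rose here too, and Cnot1 fell in both. Scaling by the median of ratios moved the median over all rows by 0.22 at this step; Cnot1 was then at -0.10 and not called and Parn at 0.12, while the other 8 kept their rise. All 6 other CCR4-NOT subunits fell here, 3 of them after scaling.

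In MT2Mm knockout embryos 6 members differed from controls at the early 2-cell stage and none at the late 1-cell stage. Pan3 measured 37.2, 39.2 and 35.9 FPKM in Early2c ctrl and 29.0, 29.4 and 29.7 in Early2c ko, a log2 change of -0.35 (SE 0.046, adjusted p = 8.89e-05). Pan2 measured 25.8, 26.7 and 26.3 and then 21.5, 21.9 and 21.7, a log2 change of -0.27 (SE 0.073, adjusted p = 0.0093). Btg4 measured 776, 828 and 834 and then 729, 709 and 709, a log2 change of -0.18 (SE 0.048, adjusted p = 0.0084). Control and knockout samples did not overlap in these 3 genes. Cnot8 measured 46.4, 54.2 and 42.0 in controls and 33.0, 39.3 and 37.7 in knockouts (-0.37, SE 0.10, adjusted p = 0.010), and Cnot7 71.8, 76.5 and 73.3 against 66.9, 69.1 and 65.8 (-0.13, SE 0.039, adjusted p = 0.014). Cnot6l measured 78.2, 79.5 and 73.5 in controls and 83.6, 85.9 and 84.4 in knockouts, and was called higher by 0.14 (adjusted p = 0.035). The Cnot7 call was lost without ko replicate 3 (-0.12). The Cnot6l call was lost without any of 5 of the 6 samples, and the change was -0.0079 after median-of-ratios scaling, which moved the median over all rows by -0.12. The other 5 stayed called under that scaling, at -0.33 for Btg4, -0.28 for Cnot7, -0.51 for Cnot8, -0.41 for Pan2 and -0.49 for Pan3, and Cnot6 was called as well, at -0.21. Thus 1 member was higher and 5 lower, against 33.4% and 15.6% of rows, a split over all rows that went from 4402 higher and 2056 lower to 3200 and 3342 with scaling.

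At the late 1-cell stage limma called 0 of the 10 members in knockouts, with 0 at an unadjusted p under 0.05, against 0.0455% of rows higher and 0.0683% lower. Pan3 there measured 19.5, 20.6 and 20.1 in controls and 20.6, 20.0 and 21.4 in knockouts. The knockout effect differed between the 2 stages for Pan2 (-0.41, SE 0.10, adjusted p = 0.0087) and Pan3 (-0.39, SE 0.066, adjusted p = 0.00086); 0 members had a higher and 2 a lower effect at Early2c, against 25.7% and 11.6% of rows. For Cnot8 the difference was -0.38 and did not pass (adjusted p = 0.056), although it was called with the replicate block (-0.38) and without Early2c ko replicate 2, Early2c ctrl replicate 3 or Late1c ctrl replicate 2 (-0.43 to -0.46). Cnot1 was called at 0.23 without Late1c ctrl replicate 2. After scaling, which moved the median over all rows by -0.13, 6 members were called lower in this contrast, Btg4, Cnot6 and Cnot7 among them. At Early2c, 6 genes of the 2-cell stage summed to 176 to 184 FPKM in controls and 128 to 139 in knockouts, and 8 oocyte genes to 563 to 620 and 621 to 709; their part in the members' changes was not tested. Of the other CCR4-NOT subunits 4 of 6 rose in Early2c knockouts, among them Cnot4 by 0.59 and Cnot11 by 0.48, and 3 rose after scaling. Of the exosome list 6 of 13 rose and 0 fell (5 and 0 after scaling), with Exosc1 at 1.04 and Dis3l at 0.62. Over all rows, 33.4% were called higher and 15.6% lower in Early2c knockouts before scaling. Pabpn1l rose by 1.23 (SE 0.058, adjusted p = 6.28e-08), from a mean of 10.0 FPKM to 24.2, and Noct, a CCR4-family gene, rose by 0.61.

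In LncR-3363 knockdown embryos the members changed little. Cnot8 measured 34.9, 35.5, 39.6 and 37.4 FPKM in Ctrl and 44.5, 44.2, 42.0 and 45.8 in KD-1cell, and was higher by 0.26 (SE 0.060, adjusted p = 0.0068). Zfp36l2 measured 4.54, 3.45, 3.95 and 5.16 and then 6.11, 5.62, 5.53 and 6.15, and was higher by 0.42 (SE 0.12, adjusted p = 0.016). Pan2 measured 21.4, 19.1, 20.5 and 18.7 and then 17.2, 16.6, 17.5 and 18.2, a log2 change of -0.19 (SE 0.065, adjusted p = 0.037). Groups did not overlap in any of these 3, although Zfp36l2 was lost with no filter, and Pan2 with the replicate block, with no filter and without any of 5 of the 8 samples. Btg4 measured 697, 747, 694 and 663 in Ctrl and 679, 620, 574 and 651 in KD-1cell, with some overlap, and its change of -0.15 did not pass (adjusted p = 0.12). Pan3 had a change of -0.20 (adjusted p = 0.068) and was called without KD-1cell replicate 1 (-0.23) or 2 (-0.24). The single KD-2cell sample, which entered no test, had 705 FPKM of Btg4, 45.6 of Cnot8 and 6.48 of Zfp36l2. So 2 members were higher and 1 lower, against 29.8% and 13.9% of the 11492 rows tested.

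These knockdown calls depend on the scaling. The median of ratios moved the median over all rows by -0.14 and the split over all rows from 3420 higher and 1598 lower to 2218 and 2502. With it Cnot8, at 0.10, and Zfp36l2, at 0.28, were not called. Btg4 (-0.31, adjusted p = 0.0060), Cnot1 (-0.23, adjusted p = 0.017), Pan2 (-0.34) and Pan3 (-0.35, both adjusted p = 0.0034) were called lower. Summed oocyte genes were at 602 to 667 FPKM in Ctrl and 766 to 951 in KD-1cell, and summed genes of the 2-cell stage at 81.7 to 106 and 68.7 to 98.3; their part in these values was not tested. Larger knockdown changes than in any of the 10 members were seen in the pathway lists. Noct, of the CCR4 family, had a mean of 15.5 FPKM in Ctrl (14.9 to 16.3) and 0.698 in KD-1cell (0.641 to 0.767) and fell by 3.74 (SE 0.084, adjusted p = 7.38e-09). Pum2, which binds messages at Pumilio elements, had 42.5 (40.7 to 43.8) and 7.69 (6.34 to 8.89) and fell by 2.40 (SE 0.094, adjusted p = 1.46e-07). Tent4b, a noncanonical poly(A) polymerase, had 24.9 (23.1 to 26.2) and 6.92 (6.48 to 7.31) and fell by 1.77 (SE 0.069, adjusted p = 1.42e-07). The KD-2cell sample had 2.85 FPKM of Noct, 26.4 of Pum2 and 7.44 of Tent4b. Pabpn1l rose by 1.04, and of the 6 other CCR4-NOT subunits 4 rose, Cnot3 by 0.47, with 1 rise left after scaling. Over all 11492 rows tested, 29.8% were called higher and 13.9% lower before scaling, and 2218 rows were called higher after it. The 1 rise left is near that share.

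**Figure D5:**
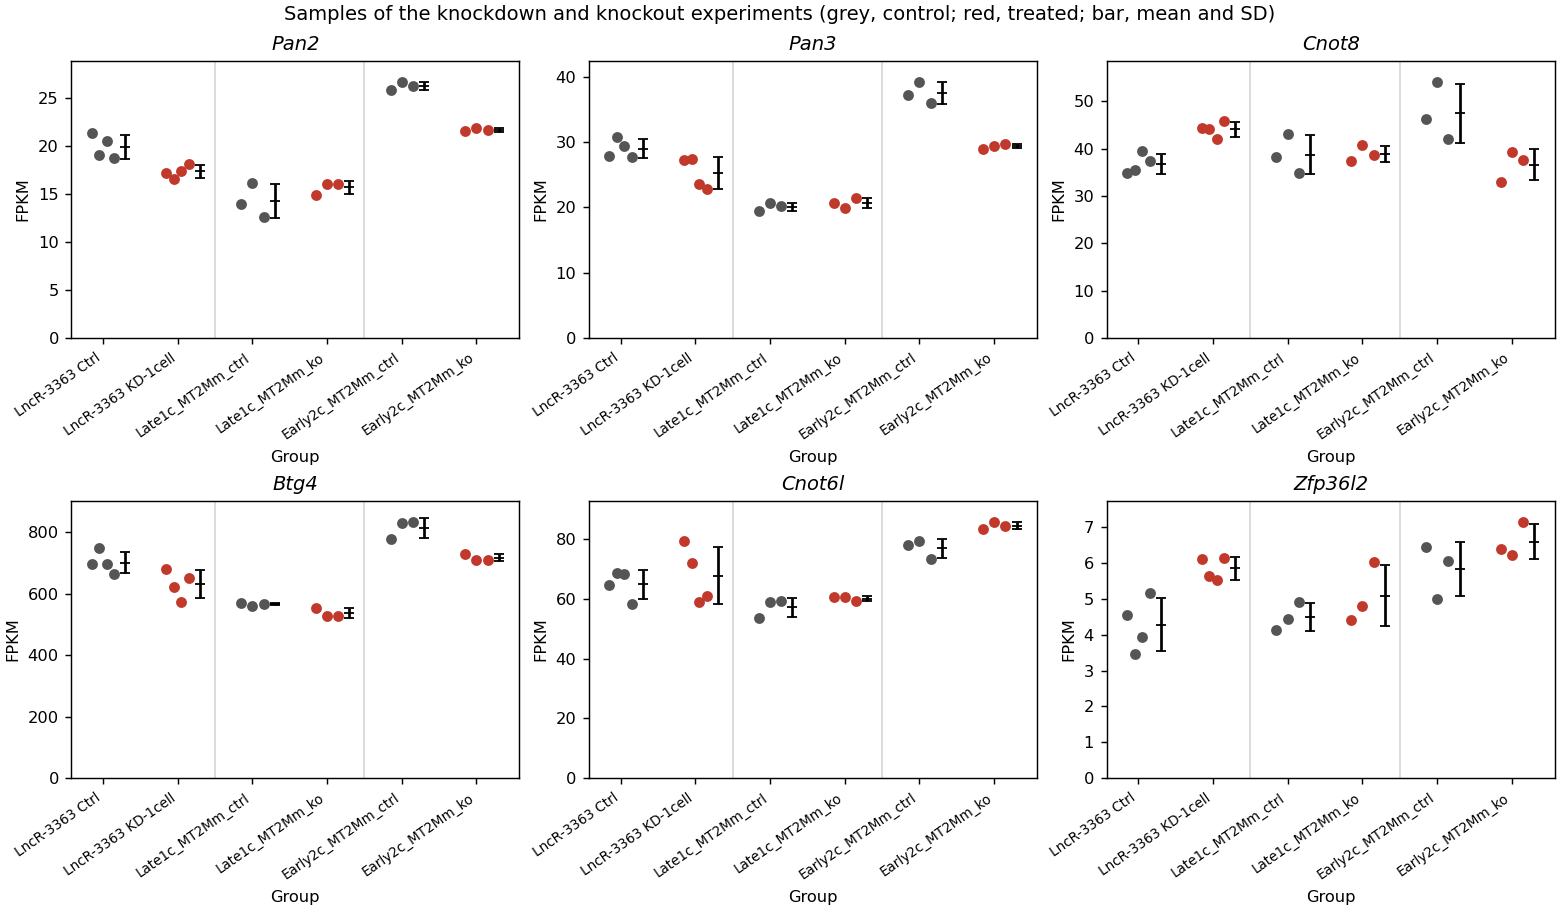
FPKM of Pan2, Pan3, Cnot8, Btg4, Cnot6l and Zfp36l2 in the knockdown and knockout experiments, with control samples grey, treated samples red, and bars for the mean and SD. Pan3 lies at 35.9 to 39.2 in Early2c ctrl and 29.0 to 29.7 in Early2c ko, and at 19.5 to 20.6 and 20.0 to 21.4 at Late1c.

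The shares within the paralog pairs were compared between treated and control embryos. Cnot6l made up 91.7% ± 0.711 (SD, n = 4) of its pair in Ctrl and 91.4% ± 0.720 in KD-1cell, and 91.1% ± 0.180 (n = 3) in Early2c ctrl and 92.2% ± 0.275 in Early2c ko, where the groups did not overlap (90.9% to 91.3% and 91.9% to 92.4%). Cnot7 made up 63.8% ± 2.98 of its pair in Ctrl and 59.4% ± 3.73 in KD-1cell, and 61.0% ± 2.53 and 64.8% ± 1.90 in Early2c ctrl and ko. In 6 two-sided exact permutation tests of the log2 ratio within a pair, the differences ran from -0.26 to 0.23 and the adjusted p from 0.4 to 0.571. The smallest p possible was 0.0286 with 4 samples against 4 and 0.1 with 3 against 3, before adjustment over the 6 tests. These tests therefore say nothing about whether the balance differed.

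By Pearson r of log2 stage means over 8 stages, among 10907 rows that reached 5 FPKM in a stage, the rows most like Btg4 were Oog3, an oocyte gene, and the long noncoding RNA C86187, both at 0.999, and Parp12 at 0.998. Cnot6l was most like the noncoding Gm10466 (0.998) and Fgf9 (0.997), a growth factor gene. Cnot7 was most like the noncoding Gm11381 (0.996), Pan2 like Mynn (0.997), Cnot1 like Las1l (0.990), which acts in ribosome biogenesis, and Pan3 like the pseudogene Gm27047 and Nab1 (0.989). Cnot8 had Stk11 and Diaph3, both at 0.987, Parn had Net1 at 0.987, and Zfp36l2 had Sptssa at 0.985. Cnot6, with its narrow range, had no row above 0.947, reached by Sept2. Among the members, Cnot6l and Pan3 had an r of 0.979 and Btg4 and Cnot6l of 0.949.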

How the data were processed

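Total RNA of 57 mouse samples in 18 groups was represented by 43 sample columns of 1 table with 59119 rows. The values are FPKM as the authors deposited them, with their sums between 311543 and 720832 per column and 10704 to 12892 rows at 1 FPKM or more. Per the submitters' processing notes, the tools were HISAT2 2.1.0, cutadapt 1.18, Cuffdiff 2.2.1, Cufflinks and StringTie 1.3.4d with genome build GRCm38, whose roles are not stated. Per the labels' protocols, libraries came from 2 stranded total RNA kits; the sources used here do not say which sample had which. FPKM keeps no depth, so read depth is unknown and no counting interval is given.

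Columns were matched to groups by name. The knockdown columns carry another short name, and the 4-cell columns are numbered 3 and 4. Of 54446 Ensembl rows, 54409 were found in GENCODE M21. FPKM + 0.5 was log2 transformed and tested with limma 3.58.1 in R 4.3.3 (lmFit, then eBayes with trend). A row was kept where it reached 1 FPKM in a number of samples equal to the smallest group. There were 4 fits, of the stages, the times, the knockdown and the knockout. The procedure was tested on simulated data, but no result of that test is given here. Adjustment was Benjamini-Hochberg over all rows tested. Fold changes on this scale understate those of low genes. Other steps used pandas 2.3.3, SciPy 1.17.1 and NumPy 2.4.6 under Python 3.11.15, and Matplotlib 3.10.9.

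All 10 genes were described in every comparison. For each, up to 3 rows of highest correlation over the stages were computed. From each pathway list, up to 3 genes with the smallest adjusted p over the stage steps and up to 2 called genes per knockdown or knockout comparison could be named. The remaining poly(A)-binding protein genes are given as levels. The members and lists were chosen with earlier results of these data known. Alternatives were a pseudocount of 0.1 or 1, no filter, median-of-ratios scaling, a replicate block, the 2 groups alone, columns that share a tag, and each sample left out.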

Additional observations from a re-analysis of the deposited data

Results flagged for a closer look

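In LncR-3363 Ctrl, 1 of the 4 samples had a Cnot6 level of 6.71 FPKM, apart from the others at 5.50 to 5.63; its gap to them was 0.897 of the whole range, above Dixon's critical value for 4 samples. Of 20 groups of this size tested, about 1 is set apart in this way by chance. In MT2Mm embryos the knockout effect on Pan2 differed between the early 2-cell and late 1-cell stage by -0.41 (adjusted p = 0.0087, limma interaction), lower in 3 of 3 knockout samples than in every control at Early2c and within the control range at Late1c. The same contrast for Pan3 was -0.39 (adjusted p = 0.00086, limma interaction).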

How the results depend on the processing

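Of 140 changes of single members, 61 were called, 28 of these lost their call under at least 1 alternative and 2 changed sign, both under median-of-ratios scaling: Cnot6l in Early2c knockouts (-0.0079) and Parn between Late1c and Early2c controls (0.12). Of 1612 alternative values, 1465 kept direction and call. Counts of called members ranged, with 1 sample left out at a time, from 0 to 3 for zygote against MII, 2 to 8 for E2-cell against zygote, 5 to 6 for L2-cell against E2-cell and 2 to 3 for 8-cell against 4-cell; they were 1 for blastocyst against morula and for 20 h against 17 h whichever sample was left out, and 2 to 4 for the knockout effect between stages. With the 2 groups alone the counts were 0 for E2-cell against zygote, 5 for morula against 8-cell, 8 for blastocyst against morula and 1 for 20 h against 17 h. With no filter 1 member was called at 20 h against 17 h and 1 in the knockdown. With scaling 6 were called for the knockout effect between stages. Median-of-ratios scaling moved the split of all rows, higher and lower, from 3517 and 5168 to 4498 and 4255 for E2-cell against zygote, from 5945 and 5150 to 4704 and 6276 for 4-cell against L2-cell, from 659 and 1862 to 959 and 1032 for 20 h against 17 h, from 4413 and 6026 to 5588 and 4802 for the MT2Mm controls, from 3382 and 1531 to 2425 and 2438 for the knockout effect between stages, from 341 and 399 to 415 and 280 for zygote against MII, and from 6 and 9 to 0 and 0 for Late1c knockouts. The cause was not tested.

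With the replicate block, 1 member was called for blastocyst against morula and 1 for 20 h against 17 h. Residuals of samples with the same number correlated at -0.138 to 0.153 over 70 pairs, so the numbers were not taken to pair samples. No block could be fitted for the 4-cell steps, whose columns have other numbers. With 2 samples a group the spread is poorly known, which limits the stage and time tests.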
